A study of Homo sapiens with 12 samples.

Results

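The 10 genes described here encode proteins that act on N6-methyladenosine (m6A) in RNA: the YTH-domain readers YTHDF1, YTHDF2, YTHDF3, YTHDC1 and YTHDC2, the RNA-binding proteins IGF2BP1, IGF2BP2 and IGF2BP3, and the demethylases FTO and ALKBH5. Members were found by gene symbol in 4 lists of RNA peaks pulled down by an ac4C antibody. N4-acetylcytidine (ac4C) is an acetylated cytidine that the enzyme NAT10 writes. The lists held 266 peaks of these 10 genes among 140401 peaks of 10992 genes. The mark measured was ac4C on the RNAs of these genes. Neither m6A nor the proteins were measured.

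All samples came from H1, a human embryonic stem cell line long established in culture, with the tissue label early embryo, grown in PGM1 medium on Matrigel. The wild-type group was H1 without further treatment per the labels. The knockdown group was H1 transduced with a lentivirus that carries a NAT10 short hairpin RNA and GFP, kept for 48 hours, then enriched for GFP and grown in TeSR-E8 medium with 0.5 ug per ml puromycin. The labels name no control hairpin, so transduction, the medium, puromycin and the loss of NAT10 cannot be told apart. Each group had 2 immunoprecipitation libraries, with 1 peak list for each. The series has 12 samples. The 8 samples of input and IgG were not used here, which leaves the amount of each RNA unknown. In these bulk cultures, fewer cells that carry a peak and less acetylated RNA per cell cannot be told apart.

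m6A is placed on messenger RNA by a nuclear complex built around METTL3 and METTL14. Readers that hold the modified adenosine in a YTH domain then direct splicing, export, translation or decay of the RNA, and IGF2BP proteins bind messenger RNAs through KH domains and stabilise them. FTO and ALKBH5 remove the methyl group. In pluripotent stem cells m6A is known for limiting how long transcripts of pluripotency genes persist, which affects exit from the pluripotent state. ac4C is a separate mark on cytidine, known from ribosomal and transfer RNA and reported on messenger RNA, where it has been tied to stability and translation.

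Facts of the whole lists set the frame. Peaks numbered 37988 and 38150 in wild type against 27787 and 36476 in knockdown, a ratio of 0.844. The targeted gene, NAT10, had 7 and 9 peaks in wild type, and no knockdown list had any (0 and 0). Of 15 human embryonic stem cell markers, 14 and 14 had a peak in the wild-type lists compared with 11 and 13 after knockdown. No list held a peak in any of the 5 mesoderm, 5 endoderm or 5 trophectoderm markers, while NES alone of 5 ectoderm markers and 3 of 5 markers shared with fibroblasts (COL1A1, COL1A2 and VIM) had peaks in all 4 lists. The authors' score attached to each peak has no stated meaning, so it is given as a percentile of its own list. Read depth is unknown. Coordinates are hg38, counted from 1.

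The 10 genes together carried 90 and 69 peaks in wild type and 46 and 61 after knockdown. Both knockdown lists lay below both wild-type lists. The means were 79.5 ± 14.8 and 53.5 ± 10.6 (SD, n = 2 each), a ratio of 0.673 (two-sided exact permutation p = 0.333, the smallest that 2 against 2 lists allow, 0.444 after Benjamini-Hochberg adjustment over 4 tests). As a share of all peaks in a list, the members made up 0.237 and 0.181% in wild type against 0.166 and 0.167% in knockdown, a ratio of 0.797 (exact permutation p = 0.333, adjusted 0.444). Without IGF2BP3 the ratio of peaks was 0.786 (exact permutation p = 0.667), so the separation of the groups rested on that gene. Leaving out 1 list at a time gave ratios between 0.579 and 0.775.

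**Figure D1:**
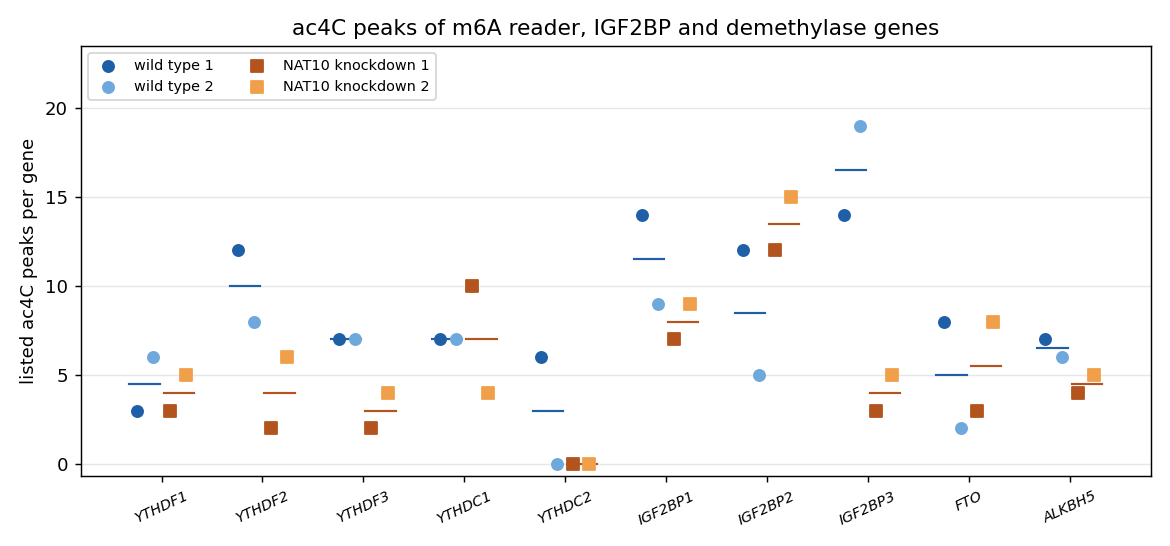
Number of ac4C peaks (vertical axis) for each member gene (horizontal axis) in the 4 lists, with 1 point per list and a line at each group's mean. YTHDF2, YTHDF3, IGF2BP3 and ALKBH5 have both knockdown points below both wild-type points, and IGF2BP3 has the widest gap, with 14 and 19 peaks against 3 and 5.

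Fewer peaks in both knockdown lists than in either wild-type list were found for 4 of the 10 genes: the readers YTHDF2 and YTHDF3, IGF2BP3 and the demethylase ALKBH5. Over all 10992 genes with a peak the same held for 22.3%. Among the 7423 genes with at least 6 peaks over the 4 lists, the lowest total of any member, it held for 29.3%. More peaks without overlap were found for 0 of the 10 genes, against 16.6% of all genes and 19.8% of those with at least 6 peaks. The median ratio of knockdown over wild-type peaks was 0.694 over the 10 members and 0.75 over 6763 genes with at least 6 peaks and a wild-type peak. The members' median thus lay close to that of all genes. Without wild-type list 1, the genes with more peaks were IGF2BP2 and FTO, 2 in all. IGF2BP2 was the 1 such gene without knockdown list 1, and YTHDC1 without knockdown list 2. When peaks were counted as a share of their list, IGF2BP2 stood higher in both knockdown lists and the 4 genes with fewer peaks were the same. With only the stronger 50% of each list, the count of genes with fewer peaks was 1, IGF2BP3, and the calls for YTHDF2, YTHDF3 and ALKBH5 ended.

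At the level of the gene, 9 of the 10 members had a peak in all 4 lists, against 32.3% of all genes. That share includes genes with fewer peaks in total than any member. A gene with fewer peaks than lists cannot be in every list, so the contrast is not corrected for peak number. No member lost its peaks from both knockdown lists, 0 of the 9 that wild-type lists 1 and 2 shared, against 12.8% of such genes. No member gained peaks that both wild-type lists lacked, 0 of 9, against 17.1%. The 12.8% and 17.1% were likewise not limited to genes with at least as many peaks as the lowest member. The member outside these classes was YTHDC2, whose peaks were in wild-type list 1 alone. Without wild-type list 2 it would count as 1 lost gene.

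Most single regions were seen in 1 list. Peaks that overlapped on the same strand by at least 1 bp were merged into 146 regions, of which 83 were found in 1 list only. Regions present in both lists of wild type and absent from both lists of the knockdown are called lost, the converse are called gained, and those present in all 4 are called kept. Where a list had several peaks in a region, the percentile given for the region is that of the strongest. Wild-type lists 1 and 2 had 35 member regions in common, and 19 of them were lost (54.3%, against 52.2% of all such regions). The knockdown lists had 22 in common, and 6 of these were gained (27.3%, against 48.1%). All 4 lists held 9 of the 146 (6.16%, against 3.4%). These counts depend on single lists: 42 regions counted as lost without wild-type list 1 and 49 without wild-type list 2. Gained regions came to 12 without wild-type list 1, 28 without knockdown list 1 and 14 without knockdown list 2, and kept regions to 15 without wild-type list 2.

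**Figure D2:**
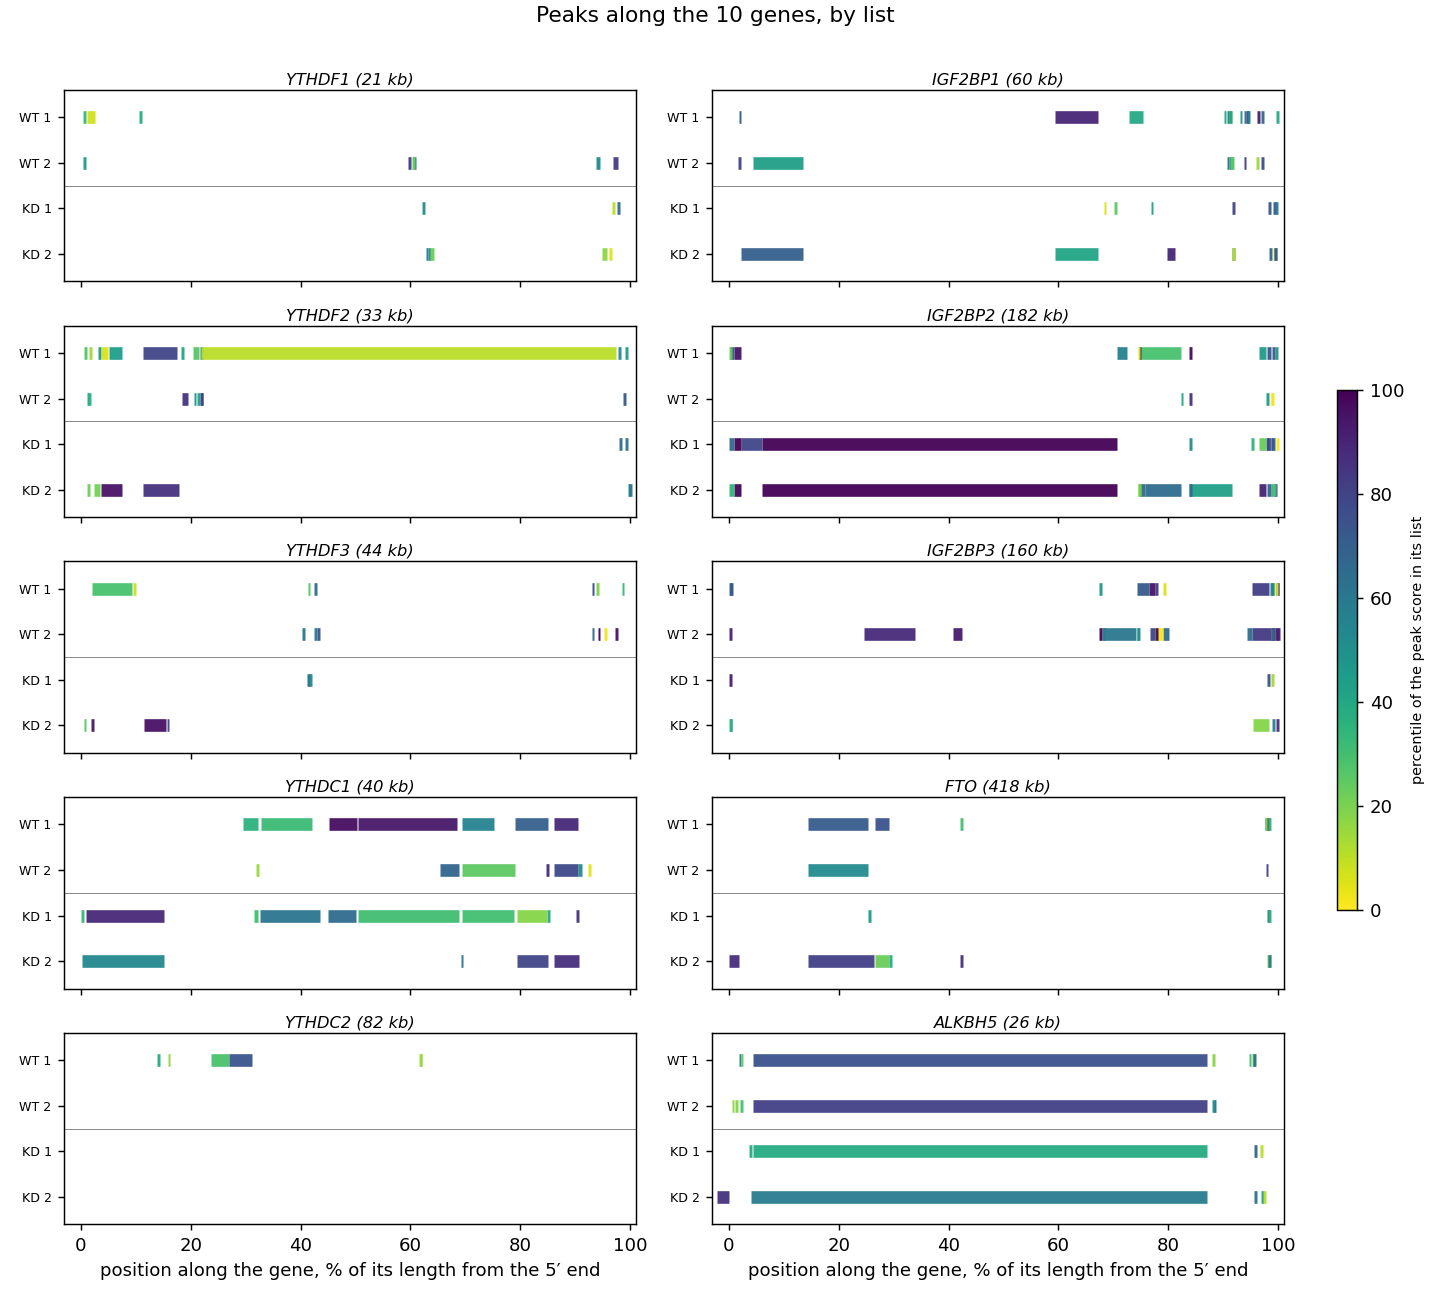
Positions of every member peak along its gene, from the annotated 5′ end to the 3′ end in percent of the RefSeq gene span, with 1 row per list (WT wild type, KD knockdown) and colour for the percentile of the score in its list. IGF2BP3 shows peaks along its middle in the wild-type rows and none there in the knockdown rows.

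IGF2BP3 held the largest difference in peak number of the 10 genes. This oncofetal RNA-binding protein stabilises its target messenger RNAs. The gene lies on the minus strand of chromosome 7 from 23310209 to 23470491. Its peaks numbered 14 and 19 in wild type against 3 and 5 in knockdown (16.5 ± 3.54 and 4.0 ± 1.41, SD, n = 2 each, ratio 0.242). The groups were far apart relative to their spread. The length covered by its peaks was also lower in both knockdown lists, with 12098 and 41610 nt in wild type against 1347 and 5233 nt in knockdown.

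The difference in IGF2BP3 lay in the middle and in the last part of the gene. Between the first and last 5% of its span, the wild-type lists had 5 and 12 peaks and the knockdown lists 0 and 0. In the last 5% the counts were 7 and 6 against 2 and 3, and in the first 5% they were 2 and 1 against 1 and 2. The first part of the gene therefore overlapped between groups, while the middle and the last part did not. All 5 lost regions of IGF2BP3 stood between 23342104 and 23362528. The strongest by its lower percentile, 23345993 to 23346067, was at percentiles 82.0 and 98.7 of the wild-type lists. Another, 23361694 to 23362528, was at 47.6 and 98.7. Both kept regions stood at the ends of the gene. The first, 23470107 to 23470406, ended 85 nt inside the annotated 5′ end and was at percentiles 71.3 and 90.5 in wild type against 91.4 and 63.1 in knockdown. The second, 23312234 to 23317715, lay 2025 nt from the annotated 3′ end, at percentiles 82.0, 83.0, 74.3 and 18.3 in the same order.

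Each list numbers its peaks, and the numbers of a member's peaks ran along the gene except for 1 IGF2BP1 peak of knockdown list 1, 49037222 to 49037296, which was numbered apart. Some numbers are carried by no listed peak. What they stand for is not stated. They may belong to dropped peaks of the gene or of a neighbour in the numbering, and a count of 0 at a place does not show that no peak was there. At the places where the 5 lost IGF2BP3 regions were due, 0 numbers were unlisted in both knockdown lists. Over all members this was so for 14 of the 19 lost regions and for 2 of the 6 gained regions. The same share over all lost and gained regions of the lists was not counted. Neighbouring regions can share a place in the numbering, as the lost IGF2BP3 and the gained IGF2BP1 regions did. Such regions are not separate cases, so the counts do not compare losses with gains.

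IGF2BP2, a relative of IGF2BP3 that is linked to metabolism and glucose control, had 12 and 5 wild-type peaks against 12 and 15 knockdown peaks (8.5 ± 4.95 and 13.5 ± 2.12, SD, n = 2 each). The lower knockdown list equalled the higher wild-type list. On the minus strand of chromosome 3, the gene runs from 185643130 to 185825042. Its 1 gained region was the longest span of any member, 117467 nt from 185696603 to 185814069, with the same start and end in both knockdown lists. It scored 139.7 and 172.3, at percentiles 99.5 and 99.6, the highest member peak of each knockdown list. Wild-type list 1 had peaks on either side of it, and 0 numbers were unlisted at its place in both wild-type lists. A span of that length can hold introns, and which exons lie in it was not analysed here. The length covered by IGF2BP2 peaks was 24947 and 125 nt in wild type against 132305 and 153534 nt in knockdown, which this span largely makes up.

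A second strong IGF2BP2 peak, picked after its values were seen, stood at 185821131 to 185823226. Its span of 2096 nt was the same in the 3 lists that held it. It was at percentile 94.7 of wild-type list 1 with a score of 27.6, absent from wild-type list 2, and at percentiles 99.4 and 99.2 of the knockdown lists with scores of 131.2 and 121.8. By the strongest peak of each list, kept regions of IGF2BP2 moved in opposite directions in rank. The region 185647011 to 185649524, 3881 nt from the 3′ end, was at percentiles 44.8 and 45.3 in wild type against 80.0 and 90.4 in knockdown. The region 185672570 to 185672669 was at 97.9 and 85.7 in wild type against 50.2 and 66.2 in knockdown. By the strongest peak the groups overlapped in neither region. In the first, the 80.0 of knockdown list 1 belonged to 185647011 to 185647085. That peak did not overlap the peak of wild-type list 2, 185647111 to 185647135. The other peak of knockdown list 1 there, 185647111 to 185649524, was at percentile 23.4, below both wild-type values. The separation of the groups in that region thus depended on which peak was taken.

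The 2096 nt peak covers a second RefSeq start of IGF2BP2, at 185821142. RefSeq promoter windows were matched for the members, and 2 of these windows lay whole within a member peak. They are shown because they are the sequence upstream of an annotated start that lay within the span of an ac4C peak. A span of 2096 nt can hold introns, and exons were not analysed here. Whether the pulled-down RNA held the sequence of a window was not tested. The windows are the 250 bases before the start, 5′ to 3′ on the transcript strand, from RefSeq on GRCh38.p14. Capitals mark matches to 4 repeats of CNN, where N is any base, a pattern that has been reported in ac4C peaks of human messenger RNA.
IGF2BP2 second start, chr3:185821143-185821392, minus strand: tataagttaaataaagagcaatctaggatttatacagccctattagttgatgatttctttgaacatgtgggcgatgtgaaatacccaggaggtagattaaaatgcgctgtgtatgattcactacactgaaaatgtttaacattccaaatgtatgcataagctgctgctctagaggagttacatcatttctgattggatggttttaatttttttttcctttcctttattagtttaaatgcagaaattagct
ALKBH5, chr17:18183578-18183827, plus strand: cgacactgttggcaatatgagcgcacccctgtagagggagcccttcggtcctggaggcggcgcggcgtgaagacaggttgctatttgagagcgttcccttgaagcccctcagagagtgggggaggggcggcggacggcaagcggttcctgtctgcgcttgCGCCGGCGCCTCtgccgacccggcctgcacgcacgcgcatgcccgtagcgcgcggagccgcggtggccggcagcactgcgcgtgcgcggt
The IGF2BP2 window has a GC content of 32.8% and holds 0 matches on the transcript strand and 1 on the other strand, so nothing in it is capitalised. It lay within the peak of wild-type list 1 and of both knockdown lists. The ALKBH5 window has a GC content of 70.0%, with 1 match on the transcript strand and 11 on the other, and lay within a peak of knockdown list 2 alone. Matches may overlap one another. Of 35116 RefSeq windows of the same length, 69.7% hold a match on the transcript strand and 86.8% on either strand. A match is a description of the letters only.

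IGF2BP1, which stabilises messenger RNAs in embryonic and cancer cells, had 14 and 9 wild-type peaks against 7 and 9 knockdown peaks (11.5 ± 3.54 and 8.0 ± 1.41, SD, n = 2 each). The groups touched at 9 peaks. On the plus strand of chromosome 17, it runs from 48996558 to 49056145. It had the most regions that changed sides among the 10 genes, with 5 lost, 3 gained and 1 kept.

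The exchange in IGF2BP1 took place near the 3′ end of the gene. The kept region, 49050765 to 49051289, lay 4856 nt from that end. It was at percentiles 41.6 and 54.5 in wild type against 80.0 and 60.7 in knockdown. Of the lost regions, 4 lay between 5481 and 1756 nt from the end: 49050565 to 49050664, 49052415 to 49052564, 49053790 to 49054014 and 49054290 to 49054389. The second of these was at percentiles 64.9 and 82.7, and the one after it at 91.97 and 14.7. No number was unlisted at any of these 4 places in the knockdown lists. Wild-type list 1 alone also had a peak 6 nt from the end, 49055915 to 49056139, at percentile 38.6. The 3 gained regions lay between that peak and these 4 lost regions, at distances of 906, 431 and 331 nt from the end. The strongest, 49055065 to 49055239, was at percentiles 72.8 and 66.1 of the knockdown lists. At their place wild-type list 1 had 1 unlisted number and wild-type list 2 had 2, and what these numbers stand for is not stated. The fifth lost region stood at the other end of the gene, from 48997585 to 48997709, at percentiles 71.6 and 80.1, with 1 and 2 unlisted numbers in the knockdown lists that could belong to a neighbouring gene.

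**Figure D3:**
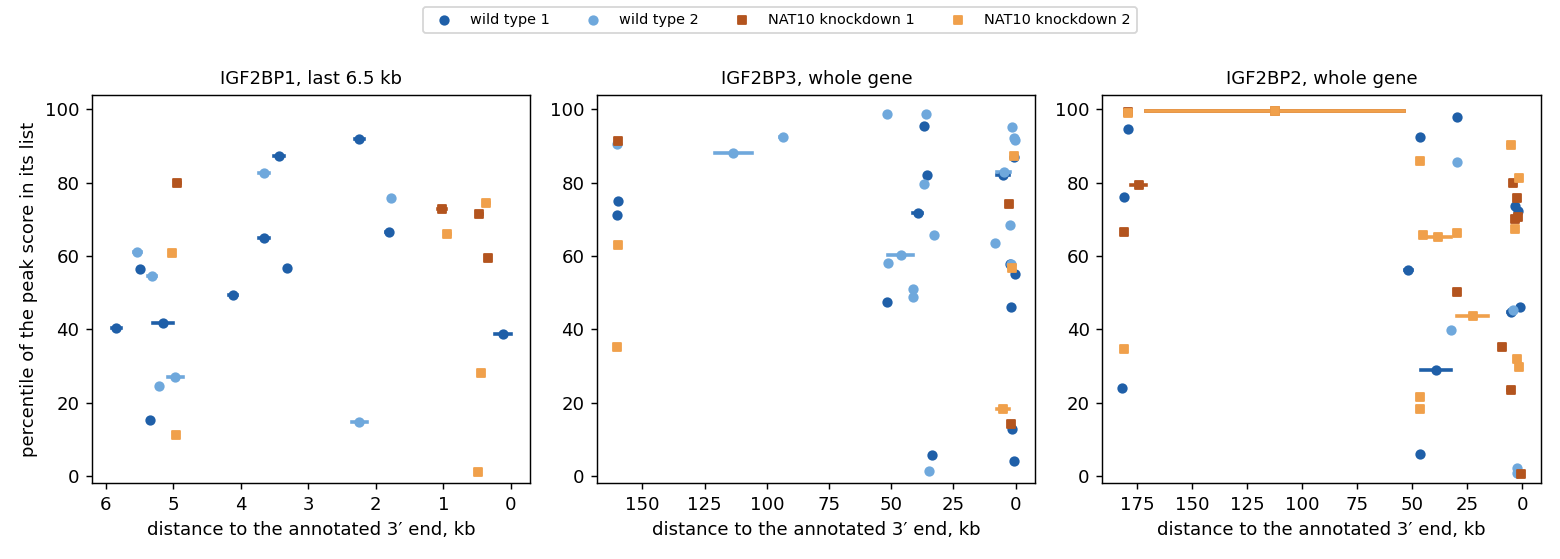
Peaks of IGF2BP1 (last 6.5 kb), IGF2BP3 and IGF2BP2 by distance to the annotated 3′ end in kb (horizontal axis) and percentile of the score in its list (vertical axis), with 1 symbol and bar per peak for its middle and span. Knockdown squares of IGF2BP1 fall near 5 kb and under 1.1 kb, those of IGF2BP3 at the ends of the gene, and the 117467 nt knockdown span of IGF2BP2 stands near the 100th percentile, where the 2 lists lie on top of each other.

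YTHDF2 is the cytoplasmic reader that brings the CCR4-NOT deadenylase to methylated RNA and so speeds its decay. It had 12 and 8 wild-type peaks against 2 and 6 knockdown peaks (10 ± 2.83 and 4.0 ± 2.83, SD, n = 2 each, ratio 0.40). The groups did not overlap, but the SD of each exceeded the gap of 2 peaks between the nearest lists. The gene lies on the plus strand of chromosome 1 from 28736624 to 28769775. Its 3 lost regions follow one another between 28742680 and 28768946. The strongest, 28742680 to 28743079, was at percentiles 40.9 and 85.3 of the wild-type lists, and 0 numbers were unlisted at any of the 3 places in the knockdown lists. The last, 28743855 to 28768946, rests on very different spans. It joins a 25042 nt span of wild-type list 1 at percentile 10.3 and a 125 nt peak of wild-type list 2 at percentile 81.5. No region of YTHDF2 was kept. In the last 5% of the gene the counts were 2 and 1 in wild type against 2 and 2 in knockdown, and in its middle they were 6 and 5 against 0 and 2. The strongest knockdown peak, 28737818 to 28739098 in knockdown list 2, was at percentile 94.96 and overlapped weaker peaks of wild-type list 1. With only the stronger 50% of each list its counts overlapped, with 3 and 4 against 2 and 4. The covered length overlapped between groups, with 29224 and 875 nt in wild type against 225 and 4002 nt in knockdown.

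YTHDF3, a cytoplasmic reader that works with YTHDF1 and YTHDF2, had 7 and 7 wild-type peaks against 2 and 4 knockdown peaks (7.0 ± 0.0 and 3.0 ± 1.41, SD, n = 2 each, ratio 0.429). YTHDF3 is on the plus strand of chromosome 8 from 63168553 to 63212788. The last 5% of the gene held 1 and 2 peaks in wild type against 0 and 0 in knockdown. The last 10% held 3 and 4 peaks against 0 and 0. Of its 3 lost regions, 2 lay there. The region 63209699 to 63209898, 2890 nt from the 3′ end, was at percentiles 77.6 and 67.2. The region 63210074 to 63210398 was at 19.3 and 98.4. With only the stronger 50% of each list its counts overlapped, with 2 and 6 against 2 and 3. The place of each lost YTHDF3 region had 1 unlisted number in each knockdown list, which can belong to a neighbour in the numbering. Knockdown list 2 had its strongest YTHDF3 peak, at percentile 95.4, at 63173675 to 63175423, where no other list had one.

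YTHDF1, known for promoting translation of methylated messenger RNAs, had 3 and 6 peaks in wild type against 3 and 5 in knockdown (4.5 ± 2.12 and 4.0 ± 1.41, SD, n = 2 each). The groups overlapped. YTHDF1 is on the minus strand of chromosome 20 from 63195429 to 63216131. Its 1 lost region was at the 5′ end, where 63215934 to 63216033, 98 nt from the annotated end, was at percentiles 32.5 and 45.6 of the wild-type lists and absent from both knockdown lists. Each knockdown list had 1 unlisted number at that place. The first 5% of the gene held 2 and 1 peaks in wild type against 0 and 0 in knockdown, and the last 5% held 0 and 1 against 2 and 2.

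The nuclear reader YTHDC1, which acts in splicing and export, had 7 and 7 peaks in wild type against 10 and 4 in knockdown (7.0 ± 0.0 and 7.0 ± 4.24, SD, n = 2 each). The knockdown lists lay on both sides of the wild-type lists. YTHDC1 is on the minus strand of chromosome 4 from 68310387 to 68350090. It had 0 lost regions, 2 kept and 1 gained. The kept region 68313862 to 68315867 was at percentiles 88.6 and 77.7 in wild type against 85.3 and 86.5 in knockdown. By the strongest peak of each list, no other kept member region had so high a lowest percentile. Wild-type list 2 had a second peak there at percentile 52.0. The strongest peak spanned 175 nt in knockdown list 1, 1681 nt in both wild-type lists and 1756 nt in knockdown list 2. The other kept region, 68316293 to 68318720, was at 69.3, 87.6, 37.8 and 79.6. The gained region reached to 33 nt from the annotated 5′ end, from 68344063 to 68350057, at percentiles 88.8 and 53.4 of the knockdown lists. At its place 0 numbers were unlisted in wild-type list 1 and 1 in wild-type list 2. Of its 28 peaks over the 4 lists, 19 spanned more than 1000 nt.

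YTHDC2, an RNA helicase with a YTH domain that is required for meiosis in mice, had 6 peaks in wild-type list 1 and 0 in each of the other 3 lists. Its highest percentile was 73.7. The gene lies on the plus strand of chromosome 5 from 113513694 to 113595284. At its place in the numbering, 1 number was unlisted in wild-type list 2, 2 in knockdown list 1 and 0 in knockdown list 2.

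FTO, a demethylase that also acts on the methylated cap-adjacent adenosine, had 8 and 2 peaks in wild type against 3 and 8 in knockdown (5.0 ± 4.24 and 5.5 ± 3.54, SD, n = 2 each). The spread within each group was larger than the difference. FTO is on the plus strand of chromosome 16 from 53703963 to 54121941, the longest span of the 10. It had 0 lost and 0 gained regions and 1 kept, 53764271 to 53814681, at percentiles 70.7 and 52.0 in wild type against 45.3 and 80.9 in knockdown. Its peak there spanned 45934 nt in both wild-type lists, 25 nt in knockdown list 1 and 50411 nt in knockdown list 2. The same call thus rests on very different spans.

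ALKBH5, a nuclear demethylase, had 7 and 6 peaks in wild type against 4 and 5 in knockdown (6.5 ± 0.707 and 4.5 ± 0.707, SD, n = 2 each, ratio 0.692). The groups did not overlap, with 1 peak between the nearest lists. The gene lies on the plus strand of chromosome 17 from 18183828 to 18209954. Of the 5 peaks of knockdown list 2, the strongest, 18183253 to 18183839, had its middle upstream of the gene. The kept region, 18184790 to 18206580, covers most of the gene. It was at percentiles 74.3 and 81.1 in wild type against 39.0 and 58.4 in knockdown, lower in rank in both knockdown lists. Of its 2 lost regions, 18184365 to 18184439 lay near the 5′ end at percentiles 24.1 and 29.7. The gained region, 18209104 to 18209203, lay 751 nt from the 3′ end at percentiles 10.9 and 42.9. At the places of its lost and gained regions 0 numbers were unlisted in the lists without the peak. Around the whole gene, neighbours included, 1 and 4 numbers were unlisted in the knockdown lists and 0 and 0 in wild type, more than the gap of 1 peak on which the call rests. With only the stronger 50% of each list the groups overlapped, with 3 and 2 peaks against 1 and 3. The covered length overlapped between groups, from 21841 to 22403 nt over the 4 lists.

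Across the 10 genes, a larger share of the knockdown peaks than of the wild-type peaks lay near the 3′ end of the gene. This comparison was chosen after the data were seen. Of the member peaks, 38.9 and 39.1% lay in the last 10% of the gene in wild type against 47.8 and 40.0% in knockdown, a difference of 4.90 percentage points (exact permutation p = 0.333, adjusted 0.444). For the last 5% the shares were 26.7 and 23.2% in wild type against 43.5 and 36.7% in knockdown, a difference of 15.1 points (exact permutation p = 0.333). The counts behind these shares were 24 and 16 against 20 and 22 peaks in the last 5%, a ratio of 1.05, and 66 and 53 against 26 and 38 in the rest of the gene, a ratio of 0.538. Without IGF2BP3 the difference for the last 5% was 17.0 points (exact permutation p = 0.333), so it did not rest on that gene. For the last 10% it was 3.93 points without IGF2BP3 (exact permutation p = 0.667). The separation of the groups in the last 10% thus rested on that gene. Without knockdown list 1 the difference for the last 10% was 0.990 points, and without knockdown list 2 it was 8.82.

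All genes went the other way. Over the peaks placed in a protein-coding RefSeq gene, 20.7 and 19.6% lay in the last 5% in wild type against 15.8 and 17.2% in knockdown, a difference of -3.64 points (exact permutation p = 0.333). The ratio of knockdown over wild-type peaks was 0.692 in the last 5% and 0.877 in the rest. The difference between the members and all genes was not tested. In the last 5%, YTHDF1 had 0 and 1 peaks in wild type against 2 and 2 in knockdown, and IGF2BP2 had 4 and 3 against 7 and 5. These genes had more peaks there without overlap. IGF2BP3 and YTHDF3 had fewer without overlap, with 7 and 6 against 2 and 3 and 1 and 2 against 0 and 0. How many of all genes differ in this way in the last 5% was not counted. Whether these calls exceed that share is therefore unknown. In ALKBH5, with 2 and 0 against 2 and 3, the highest wild-type list equalled the lowest knockdown list. The same held for IGF2BP1, with 3 and 2 against 3 and 4, and YTHDF2, with 2 and 1 against 2 and 2. FTO, with 5 and 1 against 2 and 3, overlapped between groups, and YTHDC1 and YTHDC2 had 0 peaks there in every list.

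**Figure D4:**
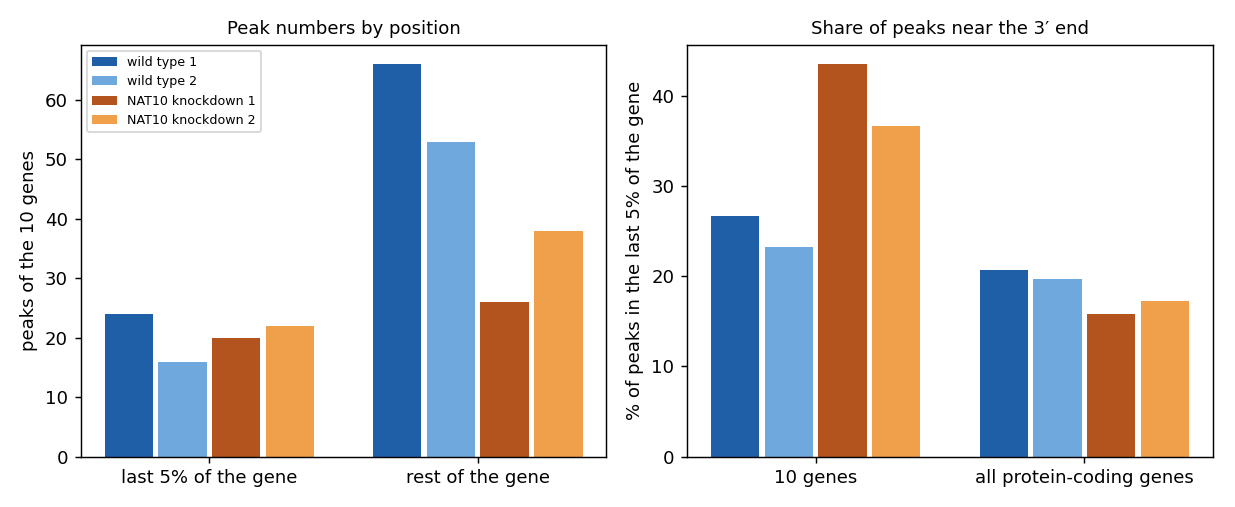
Number of member peaks in the last 5% and in the rest of the gene (left), and share of peaks in the last 5% in percent for the members and for all protein-coding genes (right), with 1 bar per list. Member shares are 26.7 and 23.2% in wild type against 43.5 and 36.7% in knockdown, while those of all genes are 20.7 and 19.6% and 15.8 and 17.2%.

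The mean share of peaks found in another list was higher for the members than for all genes, a difference that was not tested. Between lists of the same genotype, 39.3 to 58.0% of a list's member peaks overlapped a peak of the other list (mean 49.3%), against 35.6 to 50.6% for all peaks (mean 40.0%). Between genotypes the range was 23.2 to 56.5% for member peaks (mean 33.5%) and 19.8 to 26.9% for all peaks (mean 23.8%). The highest value between genotypes, 56.5%, was the share of the peaks of knockdown list 1 found in wild-type list 1, equal to their share found in knockdown list 2. The median score percentile of member peaks was 46.0 and 61.0 in wild type against 60.3 and 60.2 in knockdown, so the wild-type lists enclosed the knockdown lists.

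Genes that work with the members were counted in 6 lists of 57 symbols, 52 of which had a peak. HNRNPG, counted among those without one, is an older name of RBMX, which is in the same list. Fewer peaks without overlap were found for 21 of the 52 and more for 4, against 22.3% and 16.6% of all genes. Among all genes with at least 6 peaks the shares were 29.3% and 19.8%. The median ratio of knockdown over wild-type peaks was 0.586 over the 48 of these genes with at least 6 peaks and a wild-type peak. Over the 6763 such genes in the whole lists it was 0.75. Of the 42 that wild-type lists 1 and 2 shared, 5 were lost, against 12.8% of all such genes. Of the 35 that the knockdown lists shared, 2 were gained, against 17.1%. Of the 52, 30 were kept in all 4 lists, against 32.3% of all genes, a share that includes genes with fewer than 6 peaks.

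The lost genes belonged to 3 of the lists. Among 13 writers of m6A, 6 had fewer peaks and 1 more. WTAP, the adaptor of the writer complex, had 3 and 8 peaks in wild type against 0 and 0 in knockdown, and RBM15, which guides the complex to its targets, had 8 and 3 against 0 and 0. Among 11 other proposed readers with a peak, 5 had fewer and 1 more. HNRNPA2B1, a nuclear RNA-binding protein proposed to read m6A, had 15 and 13 peaks against 0 and 0. FXR2, of the FMR1 family, had 0 and 0 against 8 and 11. Among 11 decay partners of YTHDF2 with a peak, 5 had fewer and 1 more. CNOT7 and CNOT6L, both deadenylases of the CCR4-NOT complex, had 5 and 9 peaks and 4 and 4 peaks in wild type and 0 in each knockdown list. UPF1, the helicase of nonsense-mediated decay, had 0 and 0 peaks in wild type against 14 and 15 in knockdown.

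Partners of the other members were counted in the same way. Of 8 splicing and export partners of YTHDC1, 1 had fewer peaks and 1 more, and 7 had a peak in all 4 lists. Of 7 ribonucleoprotein partners of IGF2BP1, 3 had fewer peaks and 0 more. Of the 2 partners of YTHDC2 with a peak, 1 had fewer.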

How the data were processed

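The series holds immunoprecipitate, input and IgG libraries of wild-type and NAT10 knockdown H1 cells, 12 samples in all. The 4 deposited peak lists carry the names of the immunoprecipitation libraries. The submitters' processing notes name bedtools 2.30.0, SAMtools 1.12, HISAT2 2.2.1, fastp 0.21.1 and build hg38. Which peak caller, cutoff and control served is not given in the sources used here. The labels' protocols describe rRNA removal and fragmentation to around 200 nt, while the molecule label reads polyA RNA. The deposited score is the authors', with none below 10, and ranked peaks within a list only. Read depth is unknown, so no interval was computed.

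Peaks were assigned to members by the deposited symbol. Regions were merged at a minimum overlap of 1 bp. Positions along the gene used RefSeq gene spans (GRCh38.p14) and the middle of each peak: 95.4% of peaks matched a protein-coding RefSeq gene, 93.9% lay within it, and 265 of the 266 member peaks were placed. Each value per list was tested over the 6 arrangements of 2 against 2 (exact permutation, two-sided, with scipy 1.17.1, pandas 2.3.3, Python 3.11.15), at a threshold of 0.05. No label calls the replicates separate cultures, so the p-values concern these samples alone, whose spread may be technical. With 2 against 2 lists, p follows the order of the list values and does not measure that spread. The counting was checked on simulated lists. Alternatives were the stronger 50% of each list, spans of at most 1000 nt, each list left out, peaks as a share of the list, an overlap of 50% of the shorter peak, strand ignored and a replicate block. Same-numbered lists did not deviate together (correlation of 0.0215 over 7423 genes). All 10 members are named, with NAT10. Other pathway genes are named if lost or gained. Regions are named if kept, or if lost or gained with the highest lower percentile of the gene, and others were picked after their values were seen. The members and lists were chosen with earlier results of these data known. Exons, UTRs and region sequences were not analysed here.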

Additional observations from a re-analysis of the deposited data

How the results depend on the processing

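Under the alternatives, 72 recomputed values kept their direction and their side of the threshold (counts, to within 1.5 times) and 16 counts did not; since no p could pass the threshold, the first says nothing of the size of a ratio or difference. For the last 5% of the gene in place of the last 10%, the difference in share was 15.1 points. With only the stronger 50% of each list, 1 gene (IGF2BP3) had fewer peaks without overlap and 1 (IGF2BP2) had more, 10 regions were lost and 3 kept. With spans of at most 1000 nt, 3 regions were kept. As a share of the list, 1 gene had more peaks. Leaving out 1 list at a time gave 5 to 6 genes with fewer peaks, 0 to 2 with more, 0 to 1 lost, 9 kept and 0 gained, and 22 to 49 regions lost, 7 to 28 gained and 10 to 15 kept. These counts use fewer lists, so fewer lists must agree. The ratios then ranged from 0.579 to 0.775 for peaks, 0.702 to 0.920 for the share of the list and 0.90 to 1.0 for members with a peak, and the difference in the last 10% of the gene from 0.990 to 8.82 points. For the other changes the cause was not tested. The labels share replicate numbers, and with the replicate block the ratio of peaks was 0.673 with an exact permutation p of 0.5, the share ratio 0.797 with 0.5 and the ratio of members with a peak 0.947 with 1.0. The block changed no call. The motif in regions was not run. With 2 lists per group and no read counts, no p below 0.333 could be reached, and a missing peak does not show that the mark was absent.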
